A study of Mus musculus with 16 samples.

Results

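A set of 10 genes of MAP kinase feedback was followed in mouse CD8+ T cells that had been treated with prostaglandin E2 (PGE2), stimulated through the T cell receptor, or both. They are 8 dual-specificity phosphatases (Dusp1, Dusp2, Dusp4, Dusp5, Dusp6, Dusp10, Dusp14 and Dusp16) and the membrane adaptors Spry1 and Spred1. They were taken by symbol from the table of counts per gene, where each symbol matched 1 row, and make up 10 of 54532 genes. The cells were naive CD8+ T cells from the spleens of C57BL/6J mice, differentiated over 4 days into TCF1+CD8+ T cells by repeated activation with anti-CD3/CD28 beads and IL-2. They were then kept for 1 h with or without PGE2 at 100 ng/ml and cultured for 4 h more. Unstimulated cells received IL-2 at 85 U/ml alone, and stimulated cells received the same IL-2 plus anti-CD3/CD28 beads at 1 bead per cell, so all 4 groups shared the genotype, the earlier activation and the IL-2. Each group (unstimulated untreated, unstimulated PGE2, stimulated untreated and stimulated PGE2) held 4 RNA-seq samples. The cells were an in vitro model of TCF1+ T cells, and the labels do not say whether replicates came from separate mice, so the p-values below measure the spread between these samples, which may be partly technical.

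Engagement of the T cell receptor and CD28 activates RAS and the kinases ERK, JNK and p38, which are switched on by phosphorylation of a threonine and a tyrosine. Dual-specificity phosphatases remove both phosphates, and many are themselves transcribed in response to the kinases they switch off, which closes a negative feedback loop. Sprouty and Spred proteins act further upstream, at the step from receptor to RAS and RAF. PGE2 binds the receptors EP2 and EP4 on T cells, which raise cyclic AMP, and cyclic AMP activates transcription factors that bind the sequence TGACGTCA or its shorter form TGACG.

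Depth was 22678254 to 42950763 counts per sample, with a median of 30211840.5. Levels in a sample are given as CPM, the counts per library scaled with factors from the trimmed mean of M values, and levels are compared between genes only as FPKM, which also divides by gene length. Replicates of a group differed by more than counting noise in every pair (chi-square per degree of freedom 8.46 to 56.8), so no library was a copy of another. All 6 CD8 T cell markers were detected, and their summed level was 3476 to 4460 CPM in unstimulated untreated cells, 2756 to 2926 CPM in stimulated untreated cells, 3063 to 3934 CPM in unstimulated PGE2 cells, which overlapped the untreated ones, and 2454 to 2657 CPM in stimulated PGE2 cells, which did not. These sums were not tested. Tcf7, which encodes TCF1, had a mean of 1175 CPM in unstimulated untreated cells and 308.5 CPM in stimulated untreated cells. With PGE2 its mean was 1187 CPM in unstimulated and 407 CPM in stimulated cells. Stimulated PGE2 samples (342 to 469 CPM) did not overlap stimulated untreated ones (289 to 328 CPM). Cd8a was instead higher after stimulation, at means of 987 CPM in unstimulated and 1151 CPM in stimulated untreated cells. With PGE2 Cd8a was lower without overlap, at 719 CPM in unstimulated and 855 CPM in stimulated cells. Cd8b1 was also lower with PGE2 without overlap, with 446 to 472 against 515 to 581 CPM in stimulated cells. Cd3d, Cd3e and Cd3g overlapped between PGE2-treated and untreated samples. Markers of other cells were low. The 5 B cell markers summed to 12.0 to 21.0 CPM in unstimulated untreated cells and to 4.92 to 11.7 CPM in stimulated untreated cells, with 3 of the 5 under 1 CPM, and were thus lower after stimulation. The 4 NK cell markers summed to 6.25 to 8.22 CPM in unstimulated untreated, 8.18 to 14.1 CPM in unstimulated PGE2, 4.42 to 5.61 CPM in stimulated untreated and 7.02 to 12.0 CPM in stimulated PGE2 cells, nearly all of it from Gzma, while Ncr1 and Klra8 were at 0 in every sample. The 6 myeloid markers stayed at or below 1.14 CPM in sum, the 4 erythroid markers at or below 0.821 CPM and the 3 CD4 T cell markers at or below 10.2 CPM. The part of these markers in the results below was not tested.

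RefSeq promoter windows on build GRCm38.p6 were found for 9 of the 10 genes, with no entry for Dusp4. The stretches from 200 to 51 bases before the RefSeq start are printed for 3 genes that rose with PGE2 in unstimulated cells and for Spry1, which rose most on stimulation. Capitals mark TGACGTCA, TGACG and the CArG box, the binding sequence of serum response factor, on either strand.
Dusp1, chr17:26508523-26508672, minus strand: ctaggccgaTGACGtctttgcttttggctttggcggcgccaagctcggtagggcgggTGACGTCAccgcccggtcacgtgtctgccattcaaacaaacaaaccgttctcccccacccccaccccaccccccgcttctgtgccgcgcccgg
Dusp5, chr19:53528945-53529094, plus strand: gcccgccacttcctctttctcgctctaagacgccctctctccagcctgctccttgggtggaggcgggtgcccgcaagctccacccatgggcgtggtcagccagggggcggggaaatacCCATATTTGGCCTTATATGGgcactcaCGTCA
Dusp10, chr1:184034181-184034330, plus strand: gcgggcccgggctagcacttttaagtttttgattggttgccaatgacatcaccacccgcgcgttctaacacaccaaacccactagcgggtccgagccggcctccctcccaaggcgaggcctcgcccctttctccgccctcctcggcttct
Spry1, chr3:37639747-37639896, plus strand: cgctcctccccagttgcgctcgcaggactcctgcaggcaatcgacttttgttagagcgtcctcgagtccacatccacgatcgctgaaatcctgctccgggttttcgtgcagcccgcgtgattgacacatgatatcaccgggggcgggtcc

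In windows reaching from 250 bases before to 50 bases after the start, TGACGTCA occurred in 1.79% of 32851 mouse promoters and, among the 9 genes, in Dusp1 alone, 143 to 136 bases before the start. TGACG, which is also contained in TGACGTCA on both strands, occurred in 20.8% of all promoters and in those of Dusp1, Dusp2, Dusp5 and Dusp16. The CArG box occurred in 1.63% of all promoters. Dusp5 held it at 2 adjoining positions, 82 to 73 and 72 to 63 bases before the start, and no other of the 9 genes held it. The AP-1 sequence TGANTCA occurred in 7.81% of all promoters and in none of the 9. For Dusp10 the RefSeq start lay 21079 bases inside the gene as the count table places it, so its window is that of an internal start. These matches describe the letters in the windows, and binding was not measured.

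The 10 genes covered a wide range of levels. In unstimulated untreated cells, Dusp2 was at 36.6 ± 0.845 FPKM (SD, n = 4), Dusp5 at 29.2 ± 4.67, Dusp4 at 11.2 ± 4.81 and Dusp10 at 6.80 ± 0.408, and the other 6 lay between Dusp1 at 4.74 ± 0.704 and Dusp14 at 0.575 ± 0.302 FPKM. The samples of Dusp4 and Dusp10 overlapped, as did those of Dusp1 and Dusp6 and those of Spry1, Spred1, Dusp16 and Dusp14, each with the next. Dusp2 and Dusp5 changed places under PGE2: Dusp5 led in unstimulated PGE2 cells with 53.4 ± 3.34 FPKM against 33.9 ± 1.87 for Dusp2. In stimulated untreated cells the levels were close, with 143 ± 15.7 FPKM for Dusp5 and 139 ± 29.8 for Dusp2 and overlapping samples. Stimulated PGE2 cells had 187 ± 31.6 FPKM of Dusp5 and 91.0 ± 21.9 of Dusp2, and these did not overlap. Spry1 moved from the seventh place in unstimulated untreated cells, with 1.54 ± 0.471 FPKM, to the fourth in stimulated untreated cells, with 37.3 ± 15.5 FPKM. Dusp10 moved from the fourth to the ninth place, where its samples overlapped those of Dusp16 in the place above. Summed over the 10 genes, the level was 97.1 ± 10.2 FPKM in unstimulated untreated, 130 ± 9.03 in unstimulated PGE2, 405 ± 58.4 in stimulated untreated and 389 ± 67.3 in stimulated PGE2 cells. Dusp5 alone made up 30.1%, 41.1%, 35.2% and 48.2% of that sum in the same order.

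**Figure D1:**
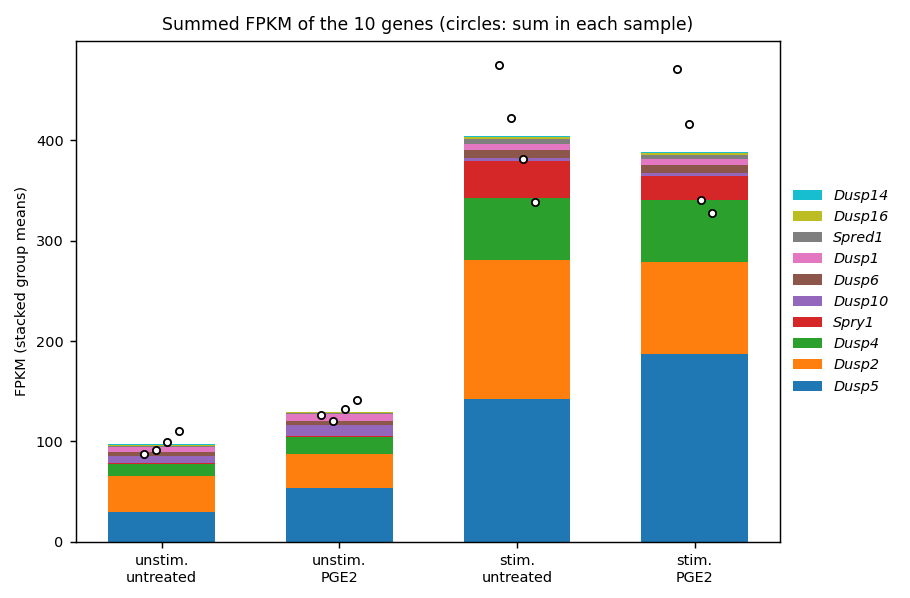
Stacked bars show the mean FPKM (linear axis) of each of the 10 genes in the 4 groups, and open circles show the sum in each sample. The summed level was 97.1 FPKM in unstimulated untreated and 405 FPKM in stimulated untreated cells, and Dusp5, Dusp2 and Dusp4 made up most of it in all 4 groups.

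Stimulation without PGE2 asked how these genes responded to 4 h of receptor engagement on top of IL-2. All 10 genes passed the filter on low counts and all 10 changed by edgeR's quasi-likelihood test at an adjusted p below 0.05, 9 of them upwards, where 66.5% of the 14205 genes tested changed, 31.7% upwards and 34.8% downwards. The 4 samples of the groups did not overlap for any of the 10, which held for 30.4% of all genes in the upward and 31.2% in the downward direction. With a change of at least 2-fold also required, 6 rose and 1 fell (23.2% of all genes changed that much, 11.5% upwards and 11.7% downwards). The median log2 fold change over the 10 was 1.59, and over all genes tested it was -0.03. In bulk RNA, fewer cells that express a gene and less of its RNA per cell cannot be told apart.

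**Figure D2:**
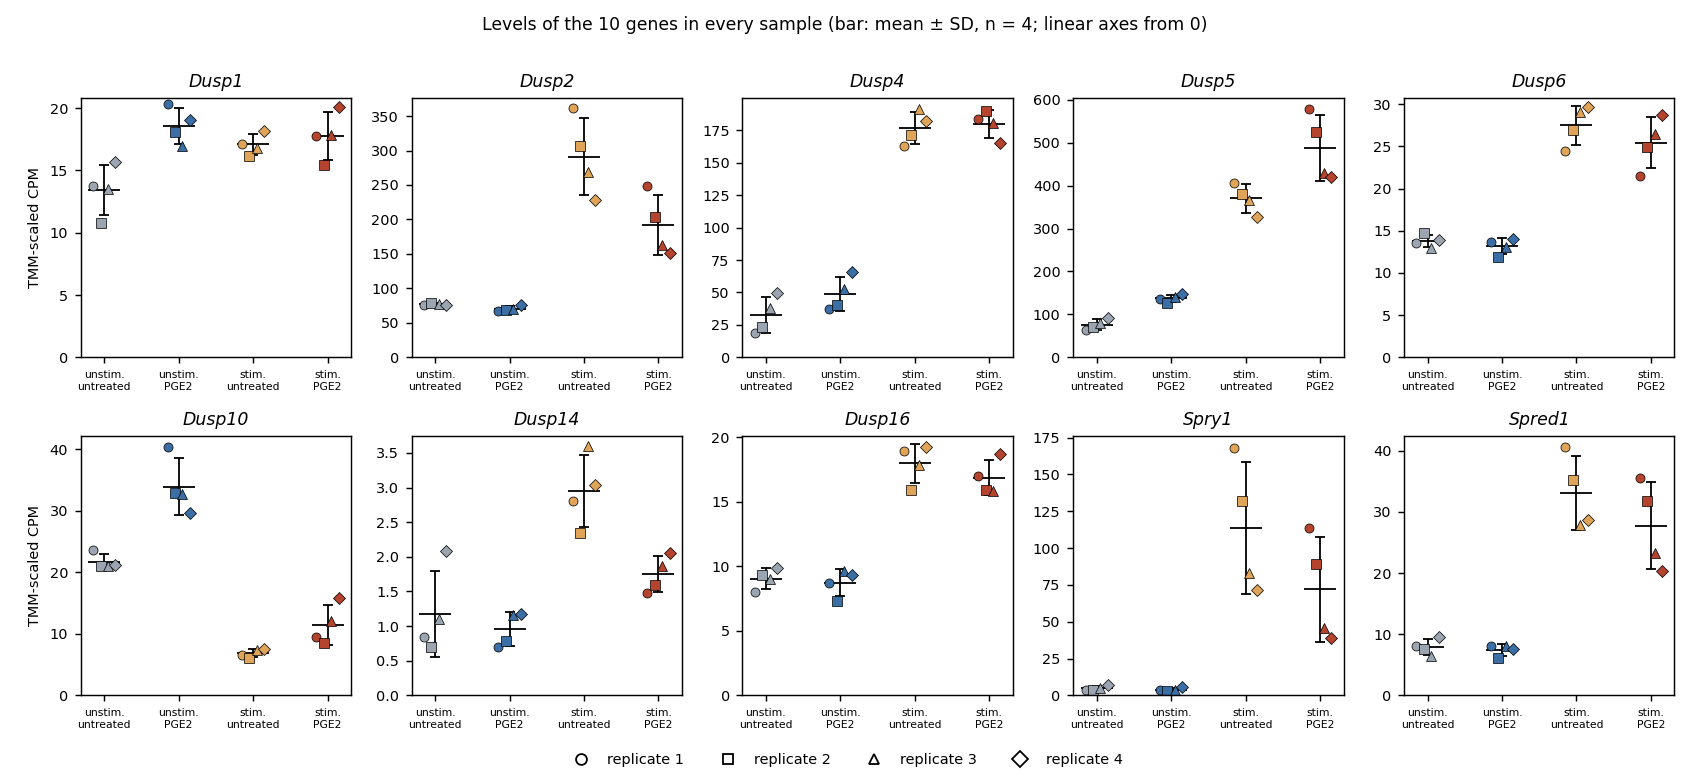
Each panel shows the CPM (linear axis from 0) of 1 gene in the 16 samples, by group and with 1 symbol per replicate number, and bars give mean ± SD (n = 4). On stimulation without PGE2, 9 genes were higher in all 4 samples and Dusp10 was lower in all 4.

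Among the inducible nuclear phosphatases, Dusp4 and Dusp5 rose most. Dusp5 (chr19:53529109-53542431, plus strand), which encodes an ERK-selective phosphatase, was at 62.8, 70.4, 79.5 and 91.6 CPM in unstimulated untreated replicates 1 to 4 and at 407, 381, 367 and 326 CPM in stimulated untreated replicates. The lowest stimulated sample was thus far above the highest unstimulated one, and the log2 fold change was 2.27 (SE 0.12, adjusted p = 2.14e-08 by edgeR). An antisense gene model of GENCODE M21, AC137853.2, covers 22.1% of its exon bases and was not analysed here. Dusp4 (chr8:34807297-34819894, plus strand), whose product dephosphorylates ERK and JNK, was at 19.0, 23.2, 38.2 and 49.4 CPM before and 163, 172, 191 and 182 CPM after stimulation. Its unstimulated samples spread widely and its stimulated samples were close together, with a log2 change of 2.42 (SE 0.24, adjusted p = 1.61e-06 by edgeR). Dusp2 (chr2:127336159-127338376, plus strand), a nuclear phosphatase of activated lymphocytes also called PAC-1, went from 75.7, 79.4, 76.9 and 76.2 CPM to 362, 306, 269 and 229 CPM. Here the unstimulated samples were tightly grouped and the stimulated ones ranged widely, and the log2 fold change was 1.91 (SE 0.13, adjusted p = 7.78e-08 by edgeR). Dusp1 (chr17:26505590-26508519, minus strand), the immediate early phosphatase of p38 and JNK, moved least of the 10. It was at 13.7, 10.8, 13.5 and 15.7 CPM before and 17.2, 16.2, 16.8 and 18.2 CPM after stimulation, a log2 difference of 0.33 (SE 0.11, adjusted p = 0.0187 by edgeR). Without unstimulated untreated replicate 2, the sample with the least Dusp1, the adjusted p was 0.0669, and with upper-quartile scaling it was 0.0950, at log2 differences of 0.23 and 0.24.

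Dusp6 (chr10:99263231-99267489, plus strand), which encodes the cytoplasmic phosphatase of ERK, was at 12.9 to 14.7 CPM in unstimulated untreated samples and at 24.5 to 29.6 CPM in stimulated ones. It rose by 0.98 on the log2 scale (SE 0.08, adjusted p = 5.80e-07 by edgeR), just under 2-fold, with no overlap of the groups. Dusp16 (chr6:134715468-134792625, minus strand), a phosphatase of JNK and p38, showed nearly the same change, from 7.98 to 9.85 CPM up to 15.9 to 19.3 CPM, with a log2 change of 0.97 (SE 0.10, adjusted p = 3.25e-06 by edgeR). Dusp14 (chr11:84048041-84069261, minus strand) encodes a small atypical phosphatase that restrains T cell receptor signalling. It was the lowest of the 10 in CPM and in FPKM, at 0.838, 0.699, 1.10 and 2.08 CPM in unstimulated and 2.81, 2.35, 3.59 and 3.04 CPM in stimulated untreated replicates. Replicate 4 stood high among the unstimulated samples, without overlap with the stimulated ones, and the log2 fold change was 1.28 (SE 0.30, adjusted p = 0.00220 by edgeR).

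Dusp10 (chr1:184013302-184075636, plus strand), like Dusp16 a phosphatase of JNK and p38, was the member that fell. It was at 23.6, 21.0, 21.1 and 21.2 CPM in unstimulated untreated and at 6.54, 6.10, 7.43 and 7.56 CPM in stimulated untreated replicates. Both groups were narrow and far apart, and Dusp10 fell by 1.67 on the log2 scale (SE 0.10, adjusted p = 3.32e-08 by edgeR), which is 3.18-fold. It ranked 459 of 14205 genes by the size of the fall.

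Spry1 (chr3:37639947-37644598, plus strand), which inhibits the step from receptor to RAS and RAF, had the largest change. It was at 3.44, 3.93, 4.79 and 6.75 CPM in unstimulated untreated replicates and at 168, 132, 82.9 and 71.2 CPM in stimulated untreated replicates. Replicates 1 and 2 were lower than 3 and 4 before stimulation and higher after it. The log2 fold change was 4.56 (SE 0.30, adjusted p = 7.65e-08 by edgeR), a 23.6-fold rise that ranked 25 among the 14205 genes. An antisense gene, Gm42922, shares 24.4% of the exon bases of Spry1 and had only 1 to 25 counts per sample. Spred1 (chr2:117121374-117182279, plus strand), which brings the RAS inhibitor neurofibromin to the membrane, rose from 6.48 to 9.58 CPM up to 27.9 to 40.7 CPM, a log2 change of 2.05 (SE 0.15, adjusted p = 1.68e-07 by edgeR). Its stimulated replicates 1 and 2 were, like those of Spry1, above replicates 3 and 4.

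In the presence of PGE2, stimulation changed 9 of the 10 genes, 8 upwards and Dusp10 downwards, against 64.2% of 14507 genes changed, 32.5% upwards and 31.7% downwards. Spry1 again rose most, by 4.21 on the log2 scale (SE 0.37, adjusted p = 4.69e-06 by edgeR), Spred1 by 1.92, Dusp4 by 1.89, Dusp5 by 1.85 and Dusp2 by 1.46, and Dusp6, Dusp16 and Dusp14 by 0.96, 0.96 and 0.87. Dusp10 fell by 1.55 on the log2 scale (SE 0.17, adjusted p = 1.66e-05 by edgeR). Dusp1 did not pass the test: it was at 20.3, 18.1, 16.9 and 19.0 CPM in unstimulated PGE2 and at 17.8, 15.4, 17.9 and 20.1 CPM in stimulated PGE2 cells, and the groups overlapped widely. Its log2 difference was -0.05, with a 95% interval from -0.26 to 0.16 (adjusted p = 0.670 by edgeR).

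Whether PGE2 altered the response to stimulation was tested as the interaction in a fit of all 16 samples. For none of the 10 genes did it pass an adjusted p of 0.05 by edgeR or by DESeq2. Of 15096 genes, 0.749% passed by edgeR and 1.57% by DESeq2. At an unadjusted edgeR p below 0.05 there were 3 genes: Dusp5 with -0.45 (95% interval -0.80 to -0.10, adjusted p = 0.326 by edgeR), Dusp1 with -0.41 (-0.73 to -0.09, adjusted p = 0.339) and Dusp2 with -0.47 (-0.88 to -0.07, adjusted p = 0.420), on the log2 scale. The change of Dusp1 on stimulation without PGE2 and its absence from the calls with PGE2 are therefore not shown to differ. For Spry1 the interval was wide, from -1.42 to 0.66, and for Dusp6 and Dusp16 it was -0.33 to 0.24 and -0.35 to 0.27. Dusp4 had the estimate largest in size, -0.56 (-1.22 to 0.09). The median over the 10 was -0.40, and over all genes tested it was 0.05. In a fit with the replicate number as a block, Dusp1 was at -0.42 (-0.66 to -0.19, adjusted p = 0.0565 by edgeR) and was not called.

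PGE2 in unstimulated cells raised 3 of the 10 genes, Dusp5, Dusp10 and Dusp1, where 28.4% of 14505 genes changed, 12.9% upwards and 15.5% downwards. None of the 3 reached 2-fold (3.38% of all genes did, in either direction). Dusp5 was at 135, 126, 140 and 147 CPM in PGE2-treated replicates, against the untreated 62.8 to 91.6 CPM given above. All PGE2-treated samples were higher, and the log2 fold change was 0.87 (SE 0.11, adjusted p = 0.000137 by edgeR). Dusp10 was at 40.5, 32.9, 32.8 and 29.7 CPM against 21.0 to 23.6 CPM in untreated samples. Again the groups did not overlap, which held for 12.1% of all genes in the upward direction, and Dusp10 rose by 0.66 (SE 0.09, adjusted p = 0.000210 by edgeR). Dusp1 was at 16.9 to 20.3 CPM against 10.8 to 15.7 CPM, also without overlap, and rose by 0.49 (SE 0.11, adjusted p = 0.00608 by edgeR).

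Samples with the same replicate number deviated together in the comparison of PGE2 in unstimulated cells, and a fit with the replicate number as a block called 5 of the 10, 4 up and 1 down, against 47.8% of all genes, 23.6% up and 24.2% down. The additional genes were Dusp4 and Dusp2. Dusp4 was at 37.0, 40.3, 52.8 and 65.6 CPM with PGE2 and 19.0, 23.2, 38.2 and 49.4 CPM without, so that the groups overlapped but PGE2 was higher within all 4 numbers, by 0.41 to 0.96 on the log2 scale. Its log2 fold change was 0.61 without the block (SE 0.28, adjusted p = 0.128 by edgeR) and 0.65 with it (SE 0.07, adjusted p = 8.04e-07). It was also called without the block when unstimulated untreated replicate 4, the highest untreated sample, was left out, at 0.88 (adjusted p = 0.0278 by edgeR). Dusp2 moved by only -0.11 in both fits (edgeR adjusted p = 0.213, and 0.0445 with the block). Spry1 was lower with PGE2 within all 4 numbers, at -0.25 in both fits, with a 95% interval from -0.78 to 0.28 without the block and from -0.50 to -0.0024 with it (adjusted p = 0.0905 by edgeR with the block). How many of all genes kept the same direction within all 4 numbers was not counted. Without the block, the other 4 were Dusp14 at -0.29 (-1.05 to 0.48), Spred1 at -0.07 (-0.38 to 0.23), Dusp6 at -0.05 (-0.23 to 0.14) and Dusp16 at -0.03 (-0.29 to 0.23), and none was called in either fit.

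**Figure D3:**
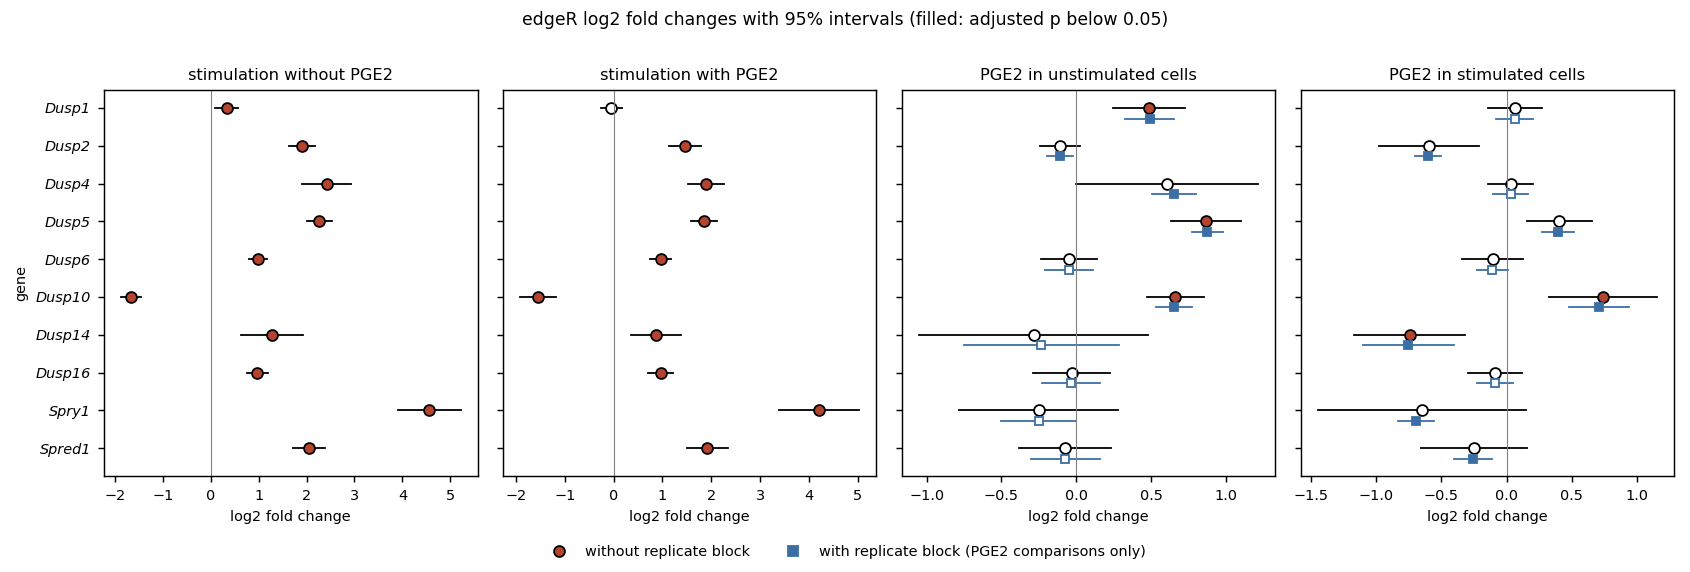
Points show log2 fold changes by edgeR with 95% intervals for the 10 genes in 4 comparisons, filled where the adjusted p was below 0.05, and squares show the fit with the replicate block for the PGE2 comparisons. The point estimates hardly moved with the block and the intervals narrowed, with 2 calls becoming 6 for PGE2 in stimulated cells and 3 becoming 5 in unstimulated cells.

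PGE2 in stimulated cells raised Dusp10 and lowered Dusp14, 2 of the 10 genes, where 9.84% of 13922 genes changed, 6.04% upwards and 3.80% downwards. Neither reached 2-fold, which 1.75% of all genes did. Dusp10 was at 9.48, 8.58, 12.1 and 15.8 CPM in PGE2-treated replicates against 6.54, 6.10, 7.43 and 7.56 CPM in untreated ones. The groups did not overlap (9.58% of all genes in this direction), and the log2 fold change was 0.74 (SE 0.19, adjusted p = 0.0350 by edgeR). Dusp14 was at 1.48, 1.59, 1.87 and 2.05 CPM against 2.81, 2.35, 3.59 and 3.04 CPM, also without overlap (8.32% of all genes in the downward direction), and fell by 0.74 on the log2 scale (SE 0.19, adjusted p = 0.0362 by edgeR). Neither call held in every fit that left out 1 sample, and these fits called 4.49% to 13.2% of all genes. The direction was kept in each of them, with log2 fold changes of 0.56 to 0.85 for Dusp10 and -0.84 to -0.63 for Dusp14. Dusp10 was above the threshold when stimulated untreated replicate 1, 2 or 3 was left out (edgeR adjusted p = 0.0833, 0.108 and 0.0686) and without stimulated PGE2 replicate 3 or 4 (0.0970 and 0.0634). Dusp14 passed only without stimulated untreated replicate 2 (adjusted p = 0.0466 by edgeR) among the 8 such fits, in which it ranged up to 0.0939.

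Dusp5 and Dusp2 lay close to the threshold on the other side. Dusp5 was at 578, 524, 429 and 419 CPM with PGE2 and 407, 381, 367 and 326 CPM without, so the groups did not overlap, and its log2 difference was 0.40 (SE 0.11, adjusted p = 0.0504 by edgeR). Leaving out stimulated PGE2 replicate 4 gave an adjusted p of 0.0358. Dusp2 was at 248, 204, 163 and 151 CPM with PGE2 and 362, 306, 269 and 229 CPM without, with overlapping groups and a log2 difference of -0.60 (SE 0.17, adjusted p = 0.0560 by edgeR). Leaving out stimulated untreated replicate 4 or stimulated PGE2 replicate 1 gave 0.0367 and 0.0177. DESeq2 called both genes in addition to Dusp10 and Dusp14, with adjusted p = 0.0186 for Dusp5 and 0.0118 for Dusp2.

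In stimulated cells too the same-numbered samples deviated together, at a lowest r of 0.190. Some differently numbered pairs did so as well, at r up to 0.250, and whether the number marks a true pairing was not tested. With the replicate block 6 of the 10 genes changed, 2 up and 4 down, where 39.8% of all genes did, 19.1% up and 20.7% down. Dusp2 fell by 0.60 on the log2 scale (SE 0.05, adjusted p = 6.57e-06 by edgeR), and was lower with PGE2 within all 4 numbers, by values from -0.72 to -0.54. Spry1 was at 113, 89.1, 46.0 and 39.0 CPM with PGE2 and 168, 132, 82.9 and 71.2 CPM without. The groups overlapped, but within each number PGE2 was lower, and the blocked fit gave -0.70 (SE 0.06, adjusted p = 1.83e-05) where the fit without the block gave -0.65 (SE 0.36, adjusted p = 0.270 by edgeR). Spred1 was at 35.6, 31.8, 23.3 and 20.3 CPM against 40.7, 35.3, 27.9 and 28.6 CPM, with -0.26 in the blocked fit (SE 0.07, adjusted p = 0.00939 by edgeR) and -0.25 without the block (adjusted p = 0.396). Dusp5 rose by 0.40 with the block (SE 0.05, adjusted p = 0.000318 by edgeR), higher in 4 of 4 numbers. Dusp10 and Dusp14 stayed called, at 0.71 and -0.75 (edgeR adjusted p = 0.000424 and 0.00330).

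**Figure D4:**
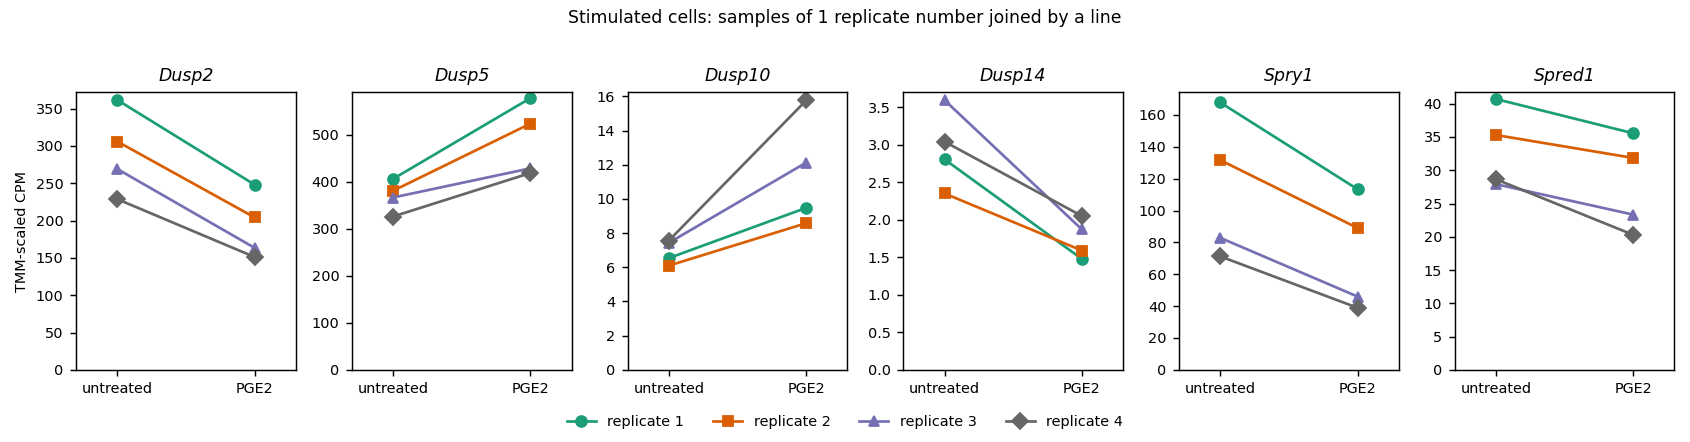
Lines join the CPM (linear axis from 0) of the stimulated untreated and stimulated PGE2 sample of each replicate number for the 6 genes called with the replicate block. In all 4 numbers Dusp5 and Dusp10 went up and Dusp2, Dusp14, Spry1 and Spred1 went down, while the numbers differed in level, most of all for Spry1. The blocked fit that chose these genes uses the same differences within numbers, so their shared direction is no further evidence.

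The remaining 4 genes were not called for PGE2 in stimulated cells in either fit. Dusp4, which was at 165 to 190 CPM with PGE2 and 163 to 191 CPM without, had a log2 difference of 0.03 (95% interval -0.14 to 0.20). Dusp1 had 0.06 (-0.15 to 0.28), Dusp6 -0.11 (-0.34 to 0.13) and Dusp16 -0.09 (-0.29 to 0.12). Dusp6, though not called, was also lower with PGE2 within all 4 numbers, by values from -0.18 to -0.04. The share of all genes with the same direction in all 4 numbers was not counted, so no support is drawn from it. Dusp10 was the one gene of the 10 called in all 4 pairwise comparisons without the block, and Dusp2 and Dusp5 joined it with the block. The share of all genes called in all 4 was not counted, so this is not shown to be particular to them. With the block, 72.3% of all genes were called for stimulation without PGE2 and 67.5% for stimulation with it. For PGE2 the blocked shares were 39.8% in stimulated and 47.8% in unstimulated cells. Dusp10 fell on stimulation with and without PGE2 and rose with PGE2 with and without stimulation. The comparisons that share a group share its samples.

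Over the 16 samples, the levels of most of the genes ran together and Dusp10 ran against them. Pearson's r of log2 CPM, given as a description over 16 samples that fall into 4 groups, was 0.99 between Spry1 and Spred1, 0.99 between Spry1 and Dusp2, 0.97 between Dusp4 and Dusp5 and 0.97 between Dusp6 and Dusp16, while Dusp14 was closest to Dusp16 (0.85). Dusp1 was less tied to the rest, with a highest r of 0.52, to Dusp5. Dusp10 had no positive r with any of the other 9, from -0.01 with Dusp1 to -0.97 with Dusp2. Among the 8869 genes that averaged 10 CPM or more, the nearest in pattern were Cd44 to Spry1 (0.997), Vmp1 to Dusp2 (0.994), Tnfrsf9 to Dusp4 (0.993), Odc1 to Dusp5 (0.994), Id2 to Dusp6 (0.979), Slc4a2 to Dusp10 (0.994), Dnajc21 to Spred1 (0.994), Tnip3 to Dusp16 (0.974), Syce2 to Dusp14 (0.950) and Snx18 to Dusp1 (0.846).

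The other genes of the pathway were counted in 5 lists. Of 19 other MAP kinase phosphatases and dual-specificity phosphatases, 13 were tested. Stimulation without PGE2 raised 8 and lowered 3 of the 13, at a median log2 fold change of 0.38, where 31.7% of all genes rose and 34.8% fell. Dusp12, an atypical phosphatase linked to ribosome formation, rose from 5.47 to 18.3 CPM (log2 1.73, adjusted p = 2.52e-07 by edgeR). Ptpn5, a tyrosine phosphatase of ERK and p38, rose from 1.28 to 3.84 CPM (1.56, adjusted p = 2.81e-05 by edgeR), and Dusp23 fell from 1.57 to 0.555 CPM (-1.52, adjusted p = 0.000156 by edgeR). PGE2 in unstimulated cells raised 1 of the 13, Dusp23 (0.86, adjusted p = 0.00780 by edgeR), and lowered 4, among them Dusp12 by 0.67 and the ERK phosphatase Dusp7, which fell by 0.42 on the log2 scale. Of all genes, 12.9% rose and 15.5% fell in this comparison. Ptpn5, which averaged under 1 CPM in these 8 samples and is named after its value was seen, had the largest fall of the 4 (-1.71, adjusted p = 0.00118 by edgeR). In stimulated cells the 1 gene of the list that PGE2 lowered was again Ptpn5, from 3.84 to 1.32 CPM (-1.53, adjusted p = 0.000416 by edgeR). Of all genes, PGE2 raised 6.04% and lowered 3.80% there. With the replicate block 1 gene of the list rose and 4 fell, where 39.8% of all genes were called.

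Of 19 other Sprouty and Spred genes and RAS inhibitors, 18 were tested on stimulation without PGE2. Of these 11 rose and 4 fell, where 31.7% of all genes rose and 34.8% fell. Spry2, another Sprouty gene, rose from 3.24 to 11.9 CPM (log2 1.85, adjusted p = 2.61e-07 by edgeR). Rasal1, a RAS GTPase-activating protein, rose from 2.78 to 11.4 CPM, and Rasa3, another, fell from 519 to 116 CPM (-2.17, adjusted p = 1.67e-07 by edgeR). PGE2 in stimulated cells lowered Spry2 to 7.32 CPM (-0.70, adjusted p = 0.00601 by edgeR) and Spry4 from 1.69 to 0.856 CPM (-0.99, adjusted p = 0.0416 by edgeR), and raised Rasa3 to 186 CPM (0.68, adjusted p = 0.00382 by edgeR), among 2 raised and 3 lowered in all. Of all genes, 6.04% rose and 3.80% fell. With the replicate block the counts in the list were 5 and 4, against 19.1% and 20.7% of all genes. In unstimulated cells PGE2 raised 5 of 17, including Spred2 (0.43, adjusted p = 0.00156 by edgeR) and the ubiquitin ligase gene Cblb (0.54, adjusted p = 0.000318 by edgeR), and lowered Rasal1, which fell by 0.88 on the log2 scale. There 12.9% of all genes rose and 15.5% fell.

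In the RAS-ERK cascade, 26 of 27 genes were tested, and stimulation without PGE2 raised 6 and lowered 9, where 31.7% of all genes rose and 34.8% fell. The scaffold gene Ksr1 rose from 27.3 to 103 CPM (log2 1.90, adjusted p = 5.31e-07 by edgeR) and the MAP3 kinase gene Map3k8 from 34.1 to 115 CPM (1.74, adjusted p = 1.12e-08 by edgeR), while Rasgrp2, an exchange factor of small GTPases, fell from 468 to 148 CPM (-1.67, adjusted p = 1.40e-07 by edgeR). PGE2 in stimulated cells raised 1 and lowered 4, with Ksr1 at 51.6 CPM (-0.99, adjusted p = 0.0105 by edgeR), Rasgrp2 at 106 CPM (-0.48) and Mknk2, a kinase downstream of ERK, up by 0.48. In unstimulated cells it raised 6, including Sos2 (0.46), and lowered 5, including Rasgrp2 (-0.62) and Map3k8 (-0.50). Of all genes, PGE2 raised 6.04% and lowered 3.80% in stimulated cells, and 12.9% and 15.5% in unstimulated cells. With the block the PGE2 counts were 3 and 6 in stimulated cells, where 39.8% of all genes were called, and 9 and 10 in unstimulated cells, where 47.8% were. In the p38 and JNK cascades, 23 of 25 genes were tested. Stimulation without PGE2 raised 8, including Map2k3 (1.99) and Jun (1.53), and lowered 11, including Map2k6 (-2.34), against the same 31.7% and 34.8% of all genes. Map2k3 and Map2k6 both encode kinases that phosphorylate p38. PGE2 raised 6 and lowered 1 in unstimulated cells, with Map2k6 at 0.59, Map3k5 at 0.34 and Map3k1 at 0.31, and raised 1 and lowered 2 in stimulated cells, with Map3k1 at 0.41, Map4k1 at -0.27 and Map3k11 at -0.20. These counts stand beside 12.9% and 15.5% of all genes in unstimulated cells and 6.04% and 3.80% in stimulated cells. The blocked counts were 13 and 3 in unstimulated and 6 and 4 in stimulated cells, beside the same 47.8% and 39.8% of all genes.

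The last list, of ERK output genes, held transcripts known to be induced through ERK and the transcription factors Elk1, Elk3, Elk4 and Srf, which act in that pathway. Of its 20 genes, 19 were tested. On stimulation without PGE2, 14 rose and 1 fell, against 31.7% and 34.8% of all genes, at a median log2 fold change of 1.38. The gene that fell was Elk4 (-0.70, adjusted p = 5.56e-06 by edgeR), named here after its value was seen. Among those that rose were Fosl1 (3.60, from 1.59 to 19.8 CPM, adjusted p = 5.73e-08 by edgeR), Egr1 (3.17, from 32.2 to 291 CPM, adjusted p = 6.76e-09 by edgeR) and Myc (3.10, from 137 to 1182 CPM, adjusted p = 1.33e-08 by edgeR). PGE2 lowered 4 in unstimulated cells, including Egr1 (-0.99), Egr3 (-1.07) and Myc (-0.97), and 3 in stimulated cells, Egr1 from 291 to 166 CPM (-0.81, adjusted p = 0.00886 by edgeR), Egr3 from 165 to 88.6 CPM (-0.89, adjusted p = 0.0216 by edgeR) and Elk3 (-0.48, adjusted p = 0.00443 by edgeR). Of all genes, PGE2 lowered 15.5% in unstimulated and 3.80% in stimulated cells. With the replicate block, PGE2 raised 7 and lowered 4 in unstimulated cells, against 23.6% and 24.2% of all genes, and raised 1 and lowered 7 in stimulated cells, against 19.1% and 20.7%.

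**Figure D5:**
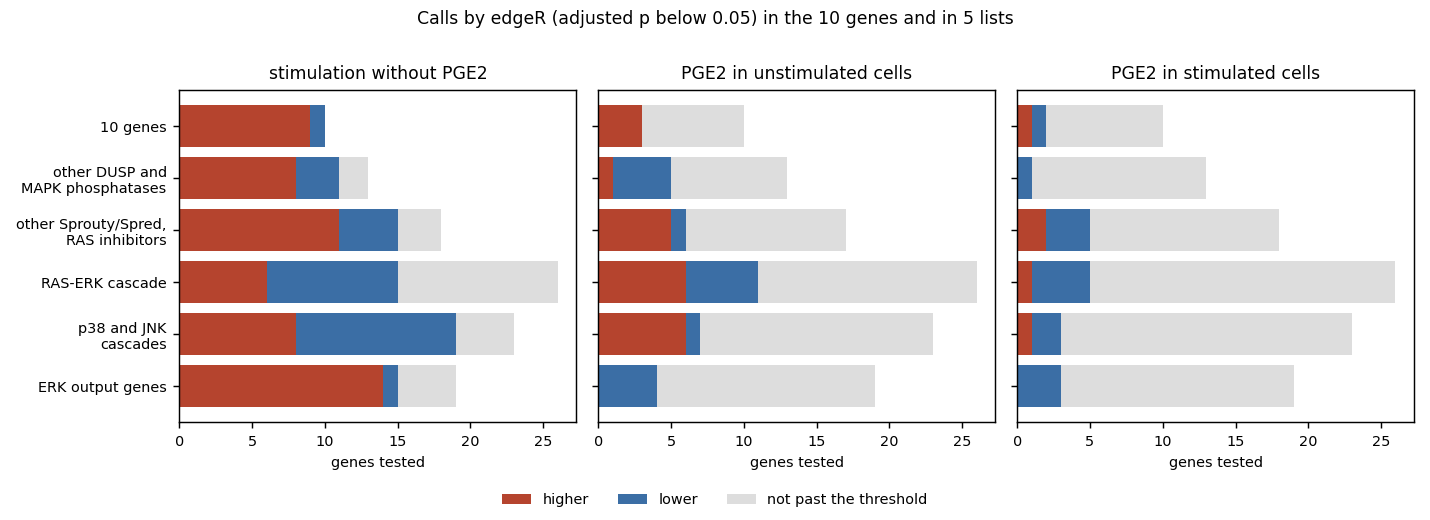
Bars count the tested genes that rose, fell or did not pass an edgeR adjusted p of 0.05 without the replicate block, for the 10 genes and for 5 lists, in 3 comparisons. On stimulation 9 of the 10 genes and 14 of 19 ERK output genes rose. Of the other phosphatases 8 of 13 rose and 3 fell, and of the other Sprouty, Spred and RAS inhibitor genes 11 of 18 rose and 4 fell. The kinase cascades held genes called in both directions. Of all genes, 31.7% rose and 34.8% fell.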

How the data were processed

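Poly(A)-selected RNA of 16 samples was sequenced in paired-end mode (NovaSeq). The authors aligned reads to GRCm38 (mm10) with HISAT2 2.0.5, counted them per gene with featureCounts 1.5.0-p3 and used DESeq2 1.20.0 for their own tests. The annotation release, the use of strand and the counting options were not given in the sources used here. A first deposited table holds raw counts, whole numbers with no scaling. A second table by the authors holds FPKM, which was found equal to counts divided by gene length and by the library's total, up to a constant for each library (0.878 to 1.11). The columns matched samples by their descriptions, with 0 columns left over.

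Counts were tested with edgeR 4.0.16 (filterByExpr with a minimum count of 10, TMM factors, quasi-likelihood F test, two-sided, Benjamini-Hochberg adjustment over all genes tested). Each pairwise comparison used its 8 samples and the interaction all 16. A gene was called at an adjusted p below 0.05. CPM used TMM factors over all 16 samples, and Pearson's r used log2 CPM with a prior count of 2. Alternatives were DESeq2 1.42.0, limma 3.58.1 on log2(FPKM + a pseudocount of 1 or 0.1), other scalings and filters, 1 fit of all samples, a replicate block and leaving out each sample. The scripts were tested on simulated data.

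Replicate numbers come from the labels, which do not say what they share. Deviations of same-numbered samples from their group means correlated at 0.112 to 0.359 for stimulation without PGE2, 0.190 to 0.423 for PGE2 in stimulated cells and 0.137 to 0.444 for PGE2 in unstimulated cells, all over 0.1. For stimulation with PGE2 the lowest was 0.0439. Differently numbered samples reached 0.125 for stimulation without PGE2, 0.157 for stimulation with PGE2, 0.250 for PGE2 in stimulated cells and 0.124 for PGE2 in unstimulated cells. Only in the last of these comparisons was every same-numbered value above every other one.

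The 10 genes and the 5 lists were chosen with earlier results of these data known. All 10 genes are named, and from each list at most 3 called genes that averaged 1 CPM or more, those with the largest log2 fold change per comparison. Depth was 22678254 to 42950763 counts per sample. Coordinates are those of the count table. Exon overlaps were read from GENCODE M21, promoters from RefSeq.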

Additional observations from a re-analysis of the deposited data

Results flagged for a closer look

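In 2 of the 40 combinations of gene and group, 1 sample stood apart from the other 3 by more than Dixon's critical value for 4 samples, where chance gives about 1 in 20. For Dusp10 in unstimulated untreated cells, the gap between replicate 1 (23.6 CPM) and the next sample was 0.927 of the range of the group, whose other samples lay between 21.0 and 21.2 CPM. All 4 samples stayed below the lowest PGE2-treated one (29.7 CPM). For Spry1 in unstimulated PGE2 cells, replicate 4 (5.63 CPM) stood above the others (3.24 to 3.44 CPM), with a gap of 0.914 of the range. Replicate 4 was also the highest Spry1 sample of unstimulated untreated cells, at 6.75 CPM. The cause was not tested.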

How the results depend on the processing

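Of 964 values for single genes under an alternative, 911 kept their direction and their side of the threshold, 19 were no longer called, 20 became called and 14 changed sign. Without a sample, the number called of the 10 was 9 to 10 for stimulation without PGE2, 9 to 9 for stimulation with PGE2, 0 to 2 for PGE2 in stimulated cells, 3 to 4 for PGE2 in unstimulated cells and 0 to 0 for the interaction. Of all genes tested, these fits called 61.5% to 65.7% for stimulation without PGE2 and 57.5% to 63.6% with it. For PGE2 they called 4.49% to 13.2% in stimulated and 21.3% to 27.8% in unstimulated cells, and for the interaction 0.285% to 1.41%. For PGE2 in stimulated cells, 2 were called in the main analysis, 4 with DESeq2, 4 without a filter, 1 with limma on log2(FPKM + 1), 0 with the same limma fit without a filter, 0 with a change of at least 2-fold and 6 with the replicate block. For PGE2 in unstimulated cells, 3 became 0 with a change of at least 2-fold and 5 with the replicate block. There the share of all genes went from 28.4% to 3.38% and 47.8%. The causes were not tested. The block changed no other call of the 10 genes, including those for stimulation with PGE2 (9) and the interaction (0), whose same-numbered samples did not all deviate together. The blocked fits of these 2 called 67.5% and 2.70% of all genes. Upper-quartile factors moved the median of all genes from 0.00 to -0.13 for stimulation with PGE2 and from -0.03 to -0.13 without.

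The values that changed sign were all uncalled. For PGE2 in unstimulated cells they did so without a sample (unstimulated untreated replicate 2 or 4, or unstimulated PGE2 replicate 2), and over all 8 such fits the log2 difference ran from -0.084 to 0.015 for Dusp6, -0.45 to 0.14 for Dusp14, -0.092 to 0.061 for Dusp16 and -0.16 to 0.030 for Spred1. For the interaction, without a sample (stimulated PGE2 replicate 1 or 4, unstimulated untreated replicate 1 or unstimulated PGE2 replicate 3), Dusp6 ran from -0.12 to 0.030, Dusp10 from -0.10 to 0.21 and Dusp16 from -0.13 to 0.017, and Dusp10 was at -0.070 with limma on log2(FPKM + 1), with and without a filter.

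Dusp14 had the fewest counts of the 10 genes. Counting error and spread between replicates were not separated for single genes.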
